A study of Mus musculus with 12 samples.

Results

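Genes of oxidative phosphorylation were followed through the first day of epiblast-like induction in mouse embryonic stem cells. The members were the protein-coding genes of the deposited table whose symbols name a subunit, an isoform or a related factor of the 5 respiratory complexes. The symbols began with Nduf, Uqcr, Cox4 to Cox8 or Atp5, were Sdha, Sdhb, Sdhc or Sdhd, or carried the mt- prefix with Nd, Co, Cyt or Atp. Of 47729 genes, 105 were members, 92 encoded in the nucleus and 13 in mitochondrial DNA. The rule read only symbols and gene type, not measured values. The cells were of the E14Tg2a line (strain 129/Ola). Delta cells carried a homozygous deletion of a 0.7 kb regulatory region of Tcf15 (delta 0.7 in the labels), and WT cells did not carry it. The delta columns name a single clone, CL1, so genotype and clone cannot be told apart. Cells of each genotype were taken at 0 h, from N2B27 containing 2i and LIF, and 12 and 24 h after plating on fibronectin with Activin, bFGF and KOSR added to N2B27. Each of the 6 groups held 2 libraries of oligo-dT-selected mRNA. The labels number them replicate 1 and 2 but do not say that they were separate cultures, so p-values reflect only how far these samples differ from each other, and that spread may be technical.

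Complexes I to IV form the respiratory chain in the inner mitochondrial membrane. Complexes I and II feed electrons from NADH and succinate into the chain, complex III passes them to cytochrome c, complex IV reduces oxygen, and complex V uses the resulting proton gradient to make ATP. Most subunits are encoded in the nucleus and imported, while a small set of core subunits of complexes I, III, IV and V is transcribed and translated inside the mitochondrion; complex II is wholly nuclear. Naive mouse embryonic stem cells are known to use oxidative phosphorylation beside glycolysis, and primed epiblast cells to rely more on glycolysis.

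Recovered depth was 9740755 to 17570991 reads per library. Levels are in FPKM (fragments per kilobase), corrected for gene length and scaled in each library. Tcf15, the gene whose regulatory region was deleted, had 4.44 and 2.76 FPKM in delta against 99.4 and 55.4 FPKM in WT at 24 h. The pluripotency factor Pou5f1 was present in every library, at 535 to 1111 FPKM. The summed FPKM of the formative markers Pou3f1, Fgf5, Otx2 and Dnmt3b was 28.3 to 36.2 at 0 h, 97.3 to 168 at 12 h and 304 to 458 at 24 h. Muscle and blood markers were at or near 0, with Hbb-bs at 0 in 12 of 12 libraries. The replicate 1 libraries at 0 h, 1 of each genotype, stood apart from the other 10. Their FPKM values summed to 662446 in delta and 458270 in WT, against 335249 to 401902 elsewhere. Cytosolic ribosomal protein genes took 13.5% of reads in the delta library and 11.5% in the WT library, against 5.76% to 7.52% in the other 10. The deposited scaling did not follow recovered depth alone. A read per kilobase stood for 0.111 FPKM in delta 0 h replicate 1 (11881186 reads) and 0.0802 in delta 12 h replicate 1 (12046443). It was 0.0987 FPKM in WT 0 h replicate 1 (10986400 reads) and 0.0882 in WT 24 h replicate 2 (10600586). The rescaling to equal library totals used below removes this factor, whose part in the falls from 0 h was not tested by itself.

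Of the 92 nuclear members, 88 were measured, that is, had at least 1 FPKM in at least 2 libraries. Every nuclear structural subunit was among them: 36 of complex I, 4 of complex II, 8 of complex III, 11 of complex IV and 15 of complex V. The 4 that were not measured were tissue isoforms of complex IV, Cox4i2, Cox6a2, Cox8b and Cox8c. FPKM is per length, so levels can be set beside each other across genes, but their order also depends on the gene lengths used. Atp5g1, at 4912 bases, had 29696 reads over 12 libraries, and Atp5l, at 511 bases, had 3140, yet Atp5g1 ranks lower per length. Taken as the mean over 12 libraries, the median subunit stood at 45.7 FPKM in complex I, 57.1 in complex II, 96.0 in complex III, 166 in complex IV and 91.3 in complex V.

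Within each complex the levels of nuclear subunits, the only ones ranked here, spread widely, although the assembled complexes hold them in fixed ratios. The highest nuclear member by mean FPKM was Atp5b, the catalytic beta subunit of ATP synthase, at 449 to 917 FPKM. Atp5g1, which encodes the c-ring subunit of the same enzyme, was the lowest of complex V at 28.9 to 60.9 FPKM. In complex IV, Cox6a1 was highest at 293 to 864 FPKM and Cox6c lowest at 35.0 to 102 FPKM. In complex III, Uqcr10 reached 123 to 600.4 FPKM, while Uqcrc1, a core protein, was lowest at 59.7 to 93.6 FPKM. In complex II, Sdhd, a membrane anchor, had 72.1 to 271 FPKM and Sdhc, the other anchor, 30.8 to 94.6 FPKM; these ranges overlap. In complex I, Ndufb9 had 123 to 554 FPKM and Ndufs5 only 3.61 to 13.2 FPKM. The level of Ndufs5 is uncertain: 21.7% of its 50-base stretches also occur in the processed pseudogene BC002163, which the table lists at 34.2 to 112.2 FPKM. Among the nuclear core subunits of complex I, which carry its flavin and iron-sulphur clusters, Ndufs1 had 17.1 to 27.5 FPKM.

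Where a subunit has several isoforms, the ubiquitous form led in every set. Cox8a, Cox6a1 and Cox4i1 each held 99.7% or more of their set's FPKM in every library. Cox7b held 92.9% to 99.0% of its set and Cox6b1 81.1% to 94.9%, the rest being Cox7b2 (1.16 to 6.67 FPKM) and Cox6b2, the testis isoform (17.3 to 60.8 FPKM). Cox7a2 held 57.6% to 71.6% of its set. Cox7a2l, a relative of Cox7a2 known for joining complexes III and IV into supercomplexes, held 21.5% to 36.3%, and Cox7a1, the heart and muscle isoform, held 4.06% to 7.97%. All 3 genes for the c-ring of ATP synthase were present, with Atp5g3 at 58.8% to 77.5%. Ndufa4l2, a hypoxia-inducible relative of the complex IV subunit Ndufa4, was the most uneven isoform, with a median of 0.463 FPKM and 3 libraries far above it.

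Only 7 of the 13 mitochondrially encoded members were measured: mt-Nd1, mt-Nd2, mt-Nd4, mt-Nd5 and mt-Nd6 of complex I, mt-Cytb of complex III and mt-Co1 of complex IV. They were among the most abundant genes of the table, with medians over 12 libraries from 343 FPKM for mt-Nd4 to 3307 FPKM for mt-Co1. The other 6 were nearly empty. Their highest FPKM in any library was 0.679 for mt-Co2, 0.508 for mt-Co3, 0.418 for mt-Atp6, 0.383 for mt-Atp8, 0.222 for mt-Nd3 and 0.775 for mt-Nd4l. These 6 genes lie next to each other on mitochondrial DNA, from mt-Co2 at chrM:7013-7696 to mt-Nd4l at chrM:9877-10173. Of them, 5 have near-identical copies annotated in the nuclear genome (mm10, GENCODE M21). The first 60 bases of a gene and its copy are shown to make the likeness visible. The capital letter marks the base that differs, which is T3C in mt-Nd3 against Gm28438, counted from the first base of the gene.
mt-Co2: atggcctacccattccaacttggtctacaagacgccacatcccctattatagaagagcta
Gm28661: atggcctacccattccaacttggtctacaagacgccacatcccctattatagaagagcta
mt-Nd3: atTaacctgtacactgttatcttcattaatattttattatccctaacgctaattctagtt
Gm28438: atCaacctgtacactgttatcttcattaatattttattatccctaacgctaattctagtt

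All 50-base stretches of mt-Co2 also occur in nuclear transcripts, as do 99.9% of mt-Co3, 99.5% of mt-Atp6, 98.8% of mt-Nd4l and 98.0% of mt-Nd3. Gm28661, Gm28437, Gm10925 and Gm10222, the copies of mt-Co2, mt-Co3, mt-Atp6 and mt-Nd4l, were identical to them over the 294 to 783 bases aligned. These copies lie within a single stretch of chromosome 1, together with Gm28438 (chr1:24612775-24613119, minus strand). The share was 62.2% for mt-Nd4 and 51.1% for mt-Co1, both measured, so the levels given for these 2 are uncertain. It was at most 8.19% for the other 5 measured genes. No stretch of mt-Atp8 was found in annotated nuclear transcripts, and it was listed at 0 in 11 libraries. Only annotated transcripts were searched, so a nuclear copy of mt-Atp8 outside them would not be seen. The bases between Gm10925, which ends at chr1:24614651, and Gm28661, which starts at chr1:24614885, were not searched. Gm28661, Gm28437, Gm10925 and Gm10222 were themselves at no more than 0.790 FPKM, while Gm28438 had 1.86 to 11.6 FPKM. The sources used here do not give how reads matching several places were counted, and its part in the empty members was not tested. No level is therefore given for mitochondrially encoded subunits of complex V, nor for mt-Co2, mt-Co3, mt-Nd3 and mt-Nd4l.

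**Figure D1:**
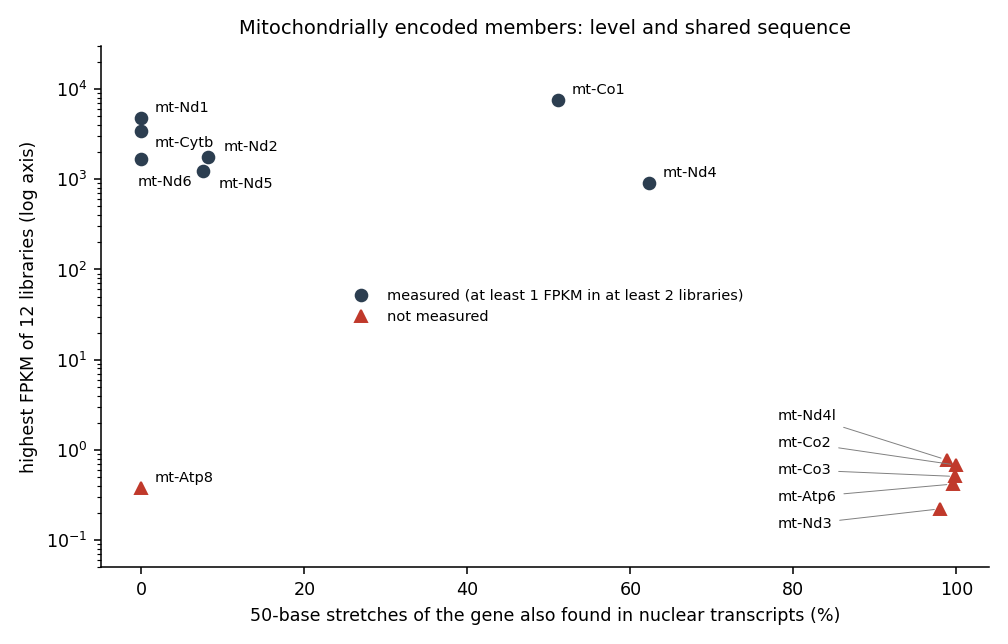
Each point is a mitochondrially encoded member. The horizontal axis gives the share of its 50-base stretches found in annotated nuclear transcripts (%). The vertical axis, on a log scale, gives its highest FPKM of 12 libraries. The 5 members at 98.0% or more, and mt-Atp8 at 0%, lie below 1 FPKM, and the 7 measured members lie above 900 FPKM.

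The 7 measured mitochondrial transcripts split by replicate number, not by genotype or time. Their summed FPKM was 12824 to 21376 in the 6 replicate 2 libraries, against 3055 to 4520 in the 6 replicate 1 libraries, with no overlap. Within the 6 pairs of the same genotype and time the sum was higher in replicate 2 in 6 of 6, by 2.95 to 6.37 times (mean log2 difference 2.07 ± 0.44, SD, n = 6 pairs; 2-sided exact permutation test, p = 0.03125, the smallest p that 6 pairs can give). They took 1.67% to 2.64% of reads in replicate 2 and 0.395% to 0.584% in replicate 1. The labels do not say what the replicate numbers stand for.

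The split was seen in every measured gene. mt-Co1, the catalytic subunit of complex IV, had 4649 to 7613 FPKM (median 5653) in replicate 2 libraries, against 1065 to 1964 (median 1572) in replicate 1 libraries. mt-Cytb, the only mitochondrially encoded subunit of complex III, had 1940.1 to 3402 FPKM (median 2380.2) in replicate 2, against 434 to 637 (median 550.1) in replicate 1. Among the complex I genes, mt-Nd1 had 2837 to 4747 FPKM in replicate 2, against 742 to 1054 in replicate 1. mt-Nd2, mt-Nd4, mt-Nd5 and mt-Nd6 showed the same separation: the lowest replicate 2 library of each lay above its highest replicate 1 library. mt-Nd6, alone among the members, is transcribed from the opposite strand, and its annotation overlaps mt-Nd5 at chrM:13552-13565. Its highest and lowest values were 1682 and 859 FPKM in replicate 2, against 361 and 191 FPKM in replicate 1. The fold between replicates of a group was widest in WT at 0 h for 6 of the 7 genes and in WT at 24 h for mt-Co1 (5.16, against 4.96 at 0 h). It reached 9.67 in mt-Nd4 and was narrowest at 12 h, at 2.46 to 3.57 over both genotypes.

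**Figure D2:**
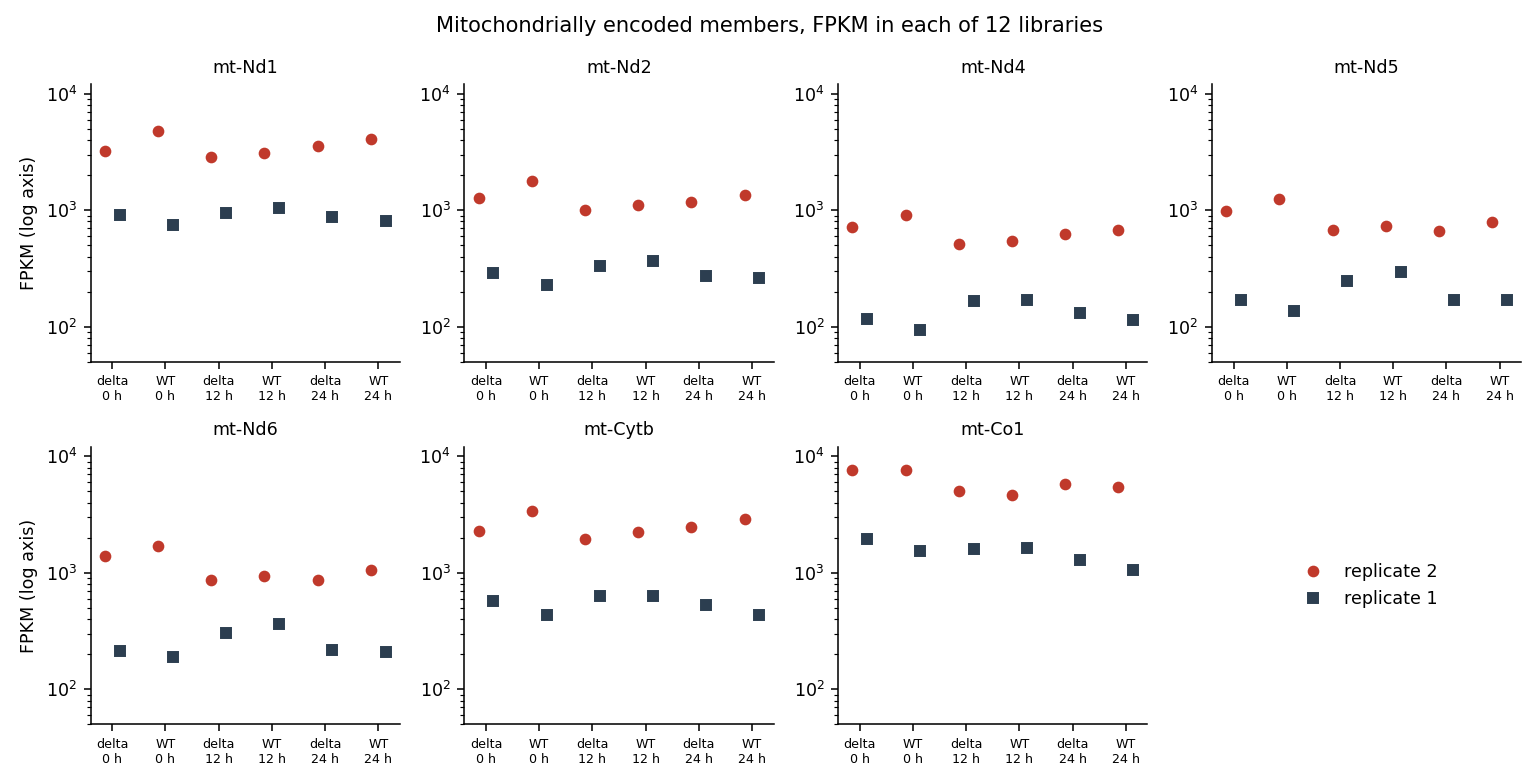
FPKM (log axis) of each measured mitochondrially encoded member in each library, by genotype and time, with replicate 2 as circles and replicate 1 as squares. In each panel every circle lies above every square; mt-Co1, for example, spans 4649 to 7613 FPKM in replicate 2 and 1065 to 1964 FPKM in replicate 1.

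In a limma model with the 6 groups and the replicate number as terms, fitted to log2(FPKM + 1) of all 13981 genes with at least 1 FPKM in at least 2 libraries, all 7 were called higher in replicate 2 (Benjamini-Hochberg adjusted p under 0.05), against 0.379% of all genes. The log2 differences were 1.99 ± 0.17 (SE) for mt-Co1 to 2.34 ± 0.22 for mt-Nd4, with adjusted p of 0.00654 to 0.0121. All 7 remained called without either replicate 1 library of 0 h, and also without both (1.72 to 2.10, adjusted p 0.0222 to 0.0264). Leaving out the WT 24 h replicate 1 library, or keeping genes of any level, left 0 of 7 past the threshold, and leaving out the WT 24 h replicate 2 library or either delta 24 h library left 5. No alternative changed the direction of any of the 7. Of the 88 nuclear members 0 were called higher or lower in limma, against 0.379% and 0.122% of all genes. An unadjusted p under 0.05 was seen for 13, a count that cannot be set against a share of all genes here. The 6 with the largest deficit in replicate 2 were Ndufb8, Atp5g3, Atp5e, Sdhd, Uqcrh and Ndufaf5, at -0.73 to -0.54, each with an adjusted p above 0.13. Without the 0 h replicate 1 libraries the same 6 stood at -0.27 to -0.09. Cox6b2 was the largest in the other direction (0.50 ± 0.10, adjusted p = 0.0679, limma), and its value was 0.50 without those libraries too; the remaining 5 of the highest 6, Ndufaf7, Atp5s, Atp5sl, Ndufaf3 and Ndufab1, stood at 0.17 to 0.01. The nuclear members' summed FPKM was lower in replicate 2 by 0.34 on the log2 scale on average (2-sided exact permutation test over 6 pairs, p = 0.1875). Under TPM, which sets every library to the same total, it was lower by 0.21, in 6 of 6 pairs (exact permutation test, p = 0.03125, the smallest that 6 pairs can give).

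Other mitochondrial lists, chosen with earlier results of these data known, gave few calls between replicate numbers. The mitochondrial ribosomal proteins, which translate these transcripts, had 0 of 76 called in either direction and a median of -0.30. Of 24 measured genes for transcription, processing and replication of mitochondrial DNA, 0 were called and the median was -0.07. Of 36 other assembly factors 1 was called, Cox20, which escorts newly made Cox2 protein in complex IV assembly: it had 15.1 to 26.1 FPKM in replicate 2 libraries, against 8.31 to 12.1 FPKM in replicate 1 libraries (log2 difference 1.04 ± 0.12, adjusted p = 0.0139, limma), and it was not called without both 0 h replicate 1 libraries. The summed FPKM of mitochondrial ribosomal RNA genes was 779 to 1502 in replicate 2 and 271 to 1037 in replicate 1, ranges that overlap through the delta 0 h replicate 1 library. The summed fibroblast markers were 54.1 to 152 FPKM in replicate 2 and 29.7 to 149.5 FPKM in replicate 1. Among them, Fn1 alone had 26.9 to 149 FPKM over all libraries. Each other fibroblast marker had a median of at most 2.60 FPKM and no library above 21.1 FPKM, and Postn was at 0 in 8 libraries. The part of the cell mixture, RNA preparation or library making in the split was not tested.

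Over time, most nuclear members had lower values after induction than at 0 h, and 13 of 88 passed the test in delta at 24 h. The summed FPKM of the nuclear members was 17556 and 7784 in delta and 13509.5 and 8159 in WT at 0 h (replicates 1 and 2, an order kept for pairs of values from here on). It was 7058 and 6784 in delta and 6548 and 7204 in WT at 12 h, and 6856 and 5832 in delta and 6610.1 and 6657 in WT at 24 h. All 8 libraries of 12 and 24 h lay below all 4 of 0 h in deposited FPKM. Under TPM the delta 12 h replicate 1 library, at 20448, lay above the delta 0 h replicate 2 library, at 20379. As deposited, the replicate 1 libraries of 0 h stood far above the rest. The same holds for the mean over the subunits of each complex. For complex I it was 47.0 and 40.6 FPKM in delta at 24 h against 122 and 53.0 at 0 h, and 45.7 and 46.4 FPKM in WT at 24 h against 92.9 and 54.3 at 0 h. Complex IV averaged 191 and 161 FPKM in delta at 24 h against 518 and 225 at 0 h. In bulk RNA a smaller share of cells of a type and less of a transcript per cell cannot be told apart.

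**Figure D3:**
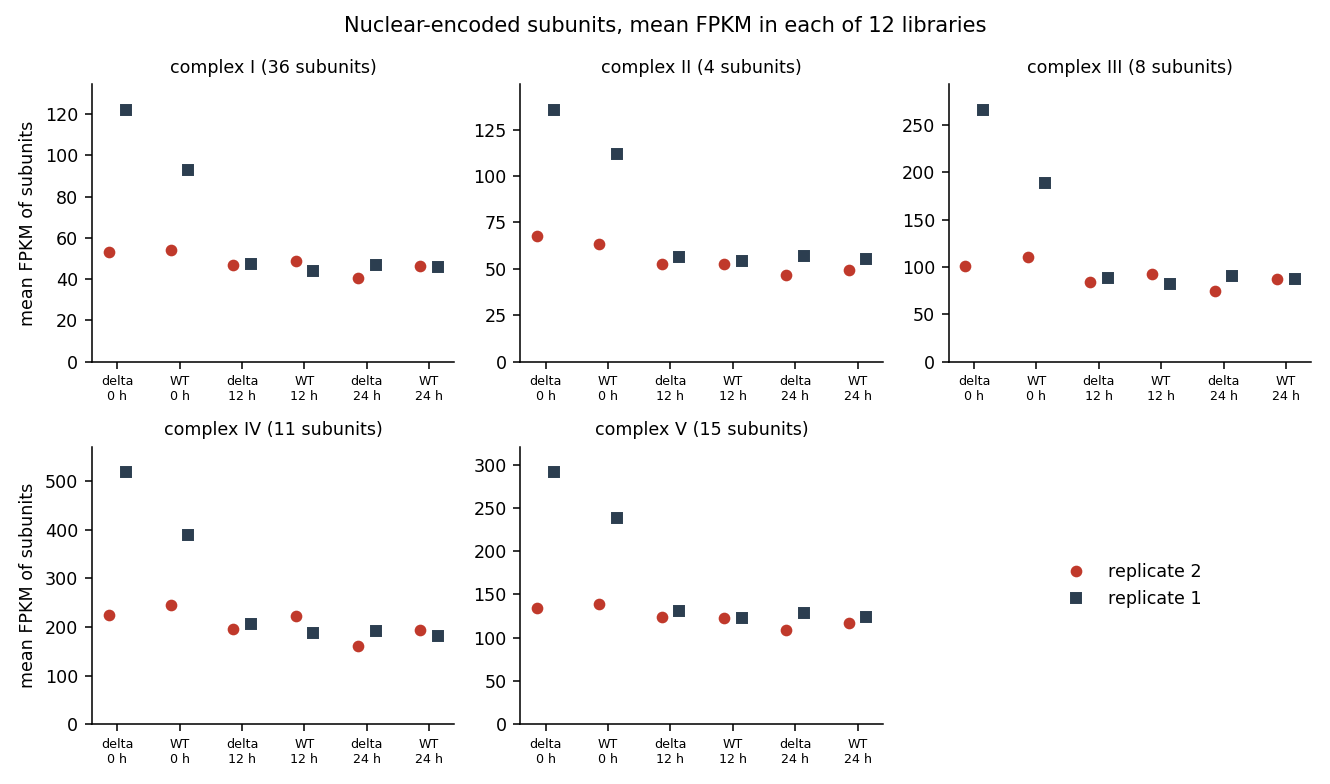
Mean FPKM of the nuclear-encoded subunits of each complex in each library, with replicate 2 as circles and replicate 1 as squares. In all 5 panels the squares of 0 h stand highest, such as 122 FPKM (delta) and 92.9 FPKM (WT) for complex I, and the other 10 libraries of that panel lie between 40.6 and 54.3 FPKM.

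Each member was also followed within same-numbered pairs. The replicate 1 pairs of both genotypes start from the 0 h libraries that stood apart, so pairing does not remove those libraries. In these pairs 86 (delta) and 84 (WT) of 88 nuclear members lay below 0 at 24 h, against 6994 and 6916 of 13981 genes. Counts over all 4 pairs therefore rest in part on them. From 0 h to 24 h, 71 of 88 nuclear members (80.7%) were lower in all 4 pairs, against 27.9% of all genes tested. At 12 h it was 64 of 88 (72.7%), against 24.1%, and 2 members were higher in all 4 pairs, against 22.4%. The median change to 24 h was -0.34 in delta and -0.21 in WT for replicate 2, and -1.32 in delta and -0.998 in WT for replicate 1. The replicate 2 pairs thus showed a decrease of smaller size. In them 75 (delta) and 78 (WT) of 88 members lay below 0, against 7338 and 7524 of 13981 genes. After rescaling to TPM, 50 of 88 (56.8%) were lower in all 4 pairs at 24 h, against 13% of all genes, and 5 were higher, against 38.4%. After quantile normalization it was 57 of 88 (64.8%), against 25.8%. Atp5sl, also known as Dmac2, a factor for the membrane arm of complex I, was the only measured nuclear member higher at 24 h in all 4 pairs in deposited FPKM, against 24.8% of all genes: 14.6 and 15.3 FPKM in delta at 24 h against 11.2 and 12.1 at 0 h, and 14.1 and 14.4 FPKM in WT at 24 h against 11.6 and 11.9 at 0 h. It was not called (0.33 ± 0.17 in delta, adjusted p = 0.227, limma).

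**Figure D4:**
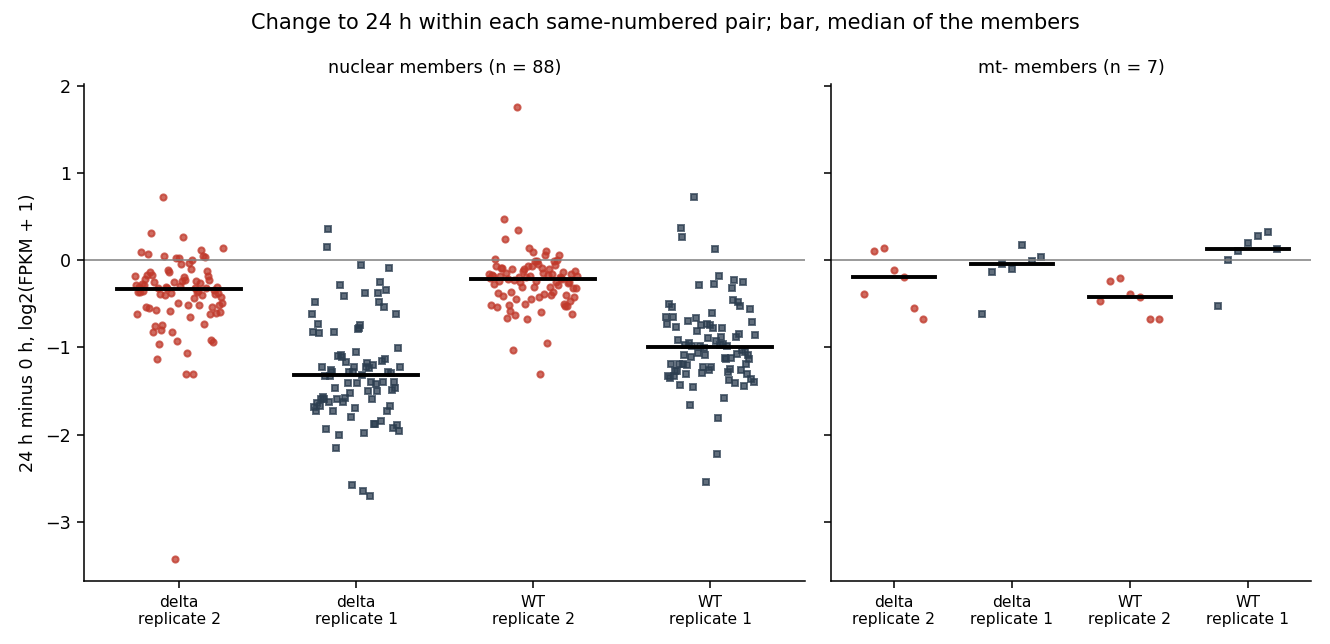
Change from 0 h to 24 h on the log2(FPKM + 1) scale within each same-numbered pair, 1 point a member, with the median as a bar. The nuclear medians are -0.34 (delta replicate 2), -1.32 (delta replicate 1), -0.21 (WT replicate 2) and -0.998 (WT replicate 1); those of the 7 mt- members lie between -0.43 and 0.13.

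In the limma fit of 6 group means, 13 of 88 nuclear members were called lower in delta at 24 h, against 7.8% of all genes, and 3 in delta at 12 h, against 3.45%. In WT it was 1 at 12 h, against 1.9%, and 1 at 24 h, against 4.94%. In the higher direction 0 of 88 were called in limma in each of the 4 contrasts, against 7.58% of all genes in delta at 24 h, 3.55% in delta at 12 h, 5.27% in WT at 24 h and 2.13% in WT at 12 h. At most 1 nuclear member per contrast had an unadjusted p under 0.05 in that direction. Between groups that did not overlap, 59 of 88 lay wholly below 0 h in delta at 24 h and 60 at 12 h, against 26.7% and 24.3% of all genes, and 72 and 70 in WT, against 27.4% and 25.8%. Wholly above 0 h lay 1 in delta at either time, against 24.8% at 24 h and 24.4% at 12 h, and 3 in WT, against 24.3% and 22.2%. The median log2 change of the 88 was -0.87 in delta and -0.64 in WT at 24 h, and -0.77 and -0.61 at 12 h, while that of all genes was -0.05 to -0.02. Under TPM the median of all genes moved up to 0.37 in delta and 0.17 in WT at 24 h, and that of the nuclear members to -0.33 and -0.39. Without both 0 h replicate 1 libraries, an alternative chosen after seeing the data, the medians were -0.21 in delta and -0.24 in WT at 24 h. Each 0 h group was then 1 library, assumed to vary like the others. That fit called 21 of 88 lower and 1 higher in delta at 24 h, against 16% and 11.9% of all genes, and 9 lower and 1 higher in WT, against 11.7% and 8.52%. Under TPM 3 were called lower in delta and 3 in WT at 24 h, against 2.8% and 2.27%.

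The count depended on single libraries. In delta at 24 h it was 75 without the delta 0 h replicate 2 library, against 20.5% of all genes, and 3 without its replicate 1, 0 without either delta 24 h library, 6 without any of the delta 12 h and WT 24 h libraries and 7 without either WT 12 h library. In delta at 12 h it was 71 without the delta 0 h replicate 2 library, against 18.4% of all genes, 4 without either WT 0 h library, 1 without delta 0 h replicate 1 or either WT 12 h library, and 0 without any of the other 6. In WT at 24 h it was 18 without either delta 0 h library, 3 without WT 0 h replicate 2, 1 without either WT 12 h library and 0 without any of the other 7. In WT at 12 h it was 4 without either delta 0 h library, 1 without WT 0 h replicate 2 and 0 without any of the other 9. Counts given here without a share of all genes cannot be set against that share. With the replicate number as a block, a pairing described under the methods, 21 of 88 were called lower in delta at 24 h, against 10.9% of all genes, 4 in WT at 24 h, against 7.23%, and 7 in delta at 12 h, against 5.56%.

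The 13 called genes covered complexes I to IV. Accessory subunits of complex I, which surround its catalytic core, made up 5 of them. Ndufb4 (ENSMUSG00000022820, chr16:37647170-37654453) had 6.38 and 5.62 FPKM in delta at 24 h, against 47.1 and 15.3 FPKM at 0 h (-2.003 ± 0.480, SE, adjusted p = 0.0229). Ndufa6 (ENSMUSG00000022450, chr15:82350140-82354322) had 83.0 and 80.0 FPKM at 24 h in delta, against 196 and 153 FPKM at 0 h, and was called at both times (-1.08 ± 0.21 at 24 h, adjusted p = 0.00952). Its 2 replicates of 24 h lay far below both of 0 h, a separation that does not rest on the replicate 1 library. Ndufa3 (ENSMUSG00000035674, chr7:3617373-3620327) had 18.9 and 14.8 FPKM at 24 h, against 56.1 and 27.0 FPKM at 0 h in delta, and was the only one of the 13 not called without the 0 h replicate 1 libraries (adjusted p = 0.1004). Ndufv3 (ENSMUSG00000024038, chr17:31520115-31531331), a small subunit of the NADH-oxidizing module, had 18.0 and 15.3 FPKM at 24 h, against 45.3 and 29.8 FPKM at 0 h (-1.10 ± 0.25, adjusted p = 0.0177). Ndufb11 (ENSMUSG00000031059, chrX:20615326-20617619), an X-linked subunit of the membrane arm, had 74.0 and 68.4 FPKM at 24 h in delta, against 168 and 108 FPKM at 0 h.

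Complex I assembly factors gave another 2 calls. Ndufaf5 (ENSMUSG00000027384, chr2:140170649-140203689), an arginine hydroxylase that acts on Ndufs7, had 5.81 and 4.19 FPKM in delta at 24 h, against 41.6 and 11.8 FPKM at 0 h (-1.97 ± 0.50, adjusted p = 0.0274). In WT it had 5.41 and 5.23 FPKM at 24 h, against 29.0 and 14.3 FPKM at 0 h. Ndufaf6 (ENSMUSG00000050323, chr4:11051045-11076205) had 9.46 and 7.52 FPKM in delta at 24 h, against 40.4 and 16.9 FPKM at 0 h (-1.53 ± 0.43, adjusted p = 0.0426). Both were also lower in every WT library of 24 h than in any WT library of 0 h, without a call there. The iron-sulphur subunit of succinate dehydrogenase, Sdhb (ENSMUSG00000009863, chr4:140961203-140979193), had 36.0 and 27.9 FPKM at 24 h in delta, against 117 and 54.3 FPKM at 0 h (-1.30 ± 0.38, adjusted p = 0.0473). Uqcrc1 (ENSMUSG00000025651, chr9:108936633-108949623) had the smallest change of the 13, with 60.2 and 59.7 FPKM at 24 h against 92.8 and 86.0 FPKM at 0 h (-0.57 ± 0.16, adjusted p = 0.0471); its 0 h replicates differed little.

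Complex IV and its relatives gave 4 calls. Cox7a2l (ENSMUSG00000024248, chr17:83501918-83517330) was the only nuclear member called in all 4 contrasts. It had 55.8 and 52.1 FPKM in delta at 24 h, against 121 and 91.7 FPKM at 0 h (-0.95 ± 0.20, adjusted p = 0.0138). In WT it had 53.1 and 55.7 FPKM at 24 h, against 106 and 86.9 FPKM at 0 h (-0.81 ± 0.20, adjusted p = 0.0362). Its value is uncertain in that 13.8% of its 50-base stretches occur in the processed pseudogene Gm6969, which the table lists at 68.5 and 54.7 FPKM in delta at 24 h, against 141 and 95.9 FPKM at 0 h. Cox5a (ENSMUSG00000000088, chr9:57521274-57532426), a structural subunit, had 276 and 219 FPKM at 24 h in delta, against 692 and 389.8 FPKM at 0 h (-1.08 ± 0.30, adjusted p = 0.0398). Cox7a1 (ENSMUSG00000074218, chr7:30184144-30186078) had 8.01 and 7.37 FPKM at 24 h in delta, against 39.0 and 15.3 FPKM at 0 h (-1.56 ± 0.37, adjusted p = 0.0234). Ndufa4l2 (ENSMUSG00000040280, chr10:127514967-127517154) had the largest change, with 0.474 and 1.05 FPKM in delta at 24 h, against 7.78 and 20.9 FPKM at 0 h (-3.00 ± 0.79, adjusted p = 0.0329). In WT its 0 h replicates were split, at 8.64 and 0.240 FPKM, the second resting on 3 reads, and it had 0.651 and 0.367 FPKM at 24 h.

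Of the 13 calls, 13 held with the replicate block, but 5 held without the low-value filter and 3 under TPM (Cox7a1, Ndufaf5 and Ndufb4). Without the 0 h replicate 1 libraries all 13 still lay below 0, but each 0 h group was then 1 library. Their calls also depended on single libraries, as the counts above did. TPM without mt- and ribosomal genes left 5 of them, and quantile normalization 11. Over all alternatives each of the 13 lost its call in at least 1, and Cox7a1 in the fewest, 3 of 20 (largest adjusted p = 0.1325, limma). Uqcrc1 lost it in 12 of 20, with an adjusted p of up to 0.9404 (limma), and Ndufa3 in 14. Every one of the 13 had no overlap between its delta libraries of 24 h and 0 h, where 26.7% of all genes lay wholly below. The 13 were chosen by the test on these same libraries, so the lack of overlap adds no support to the calls. For 8 of the 13 (Ndufa3, Ndufa6, Ndufaf5, Ndufaf6, Sdhb, Uqcrc1, Cox7a1 and Ndufa4l2) no 50-base stretch occurred in another annotated gene. Ndufb4 shared 18.3% with pseudogenes that were at most 0.858 FPKM.

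**Figure D5:**
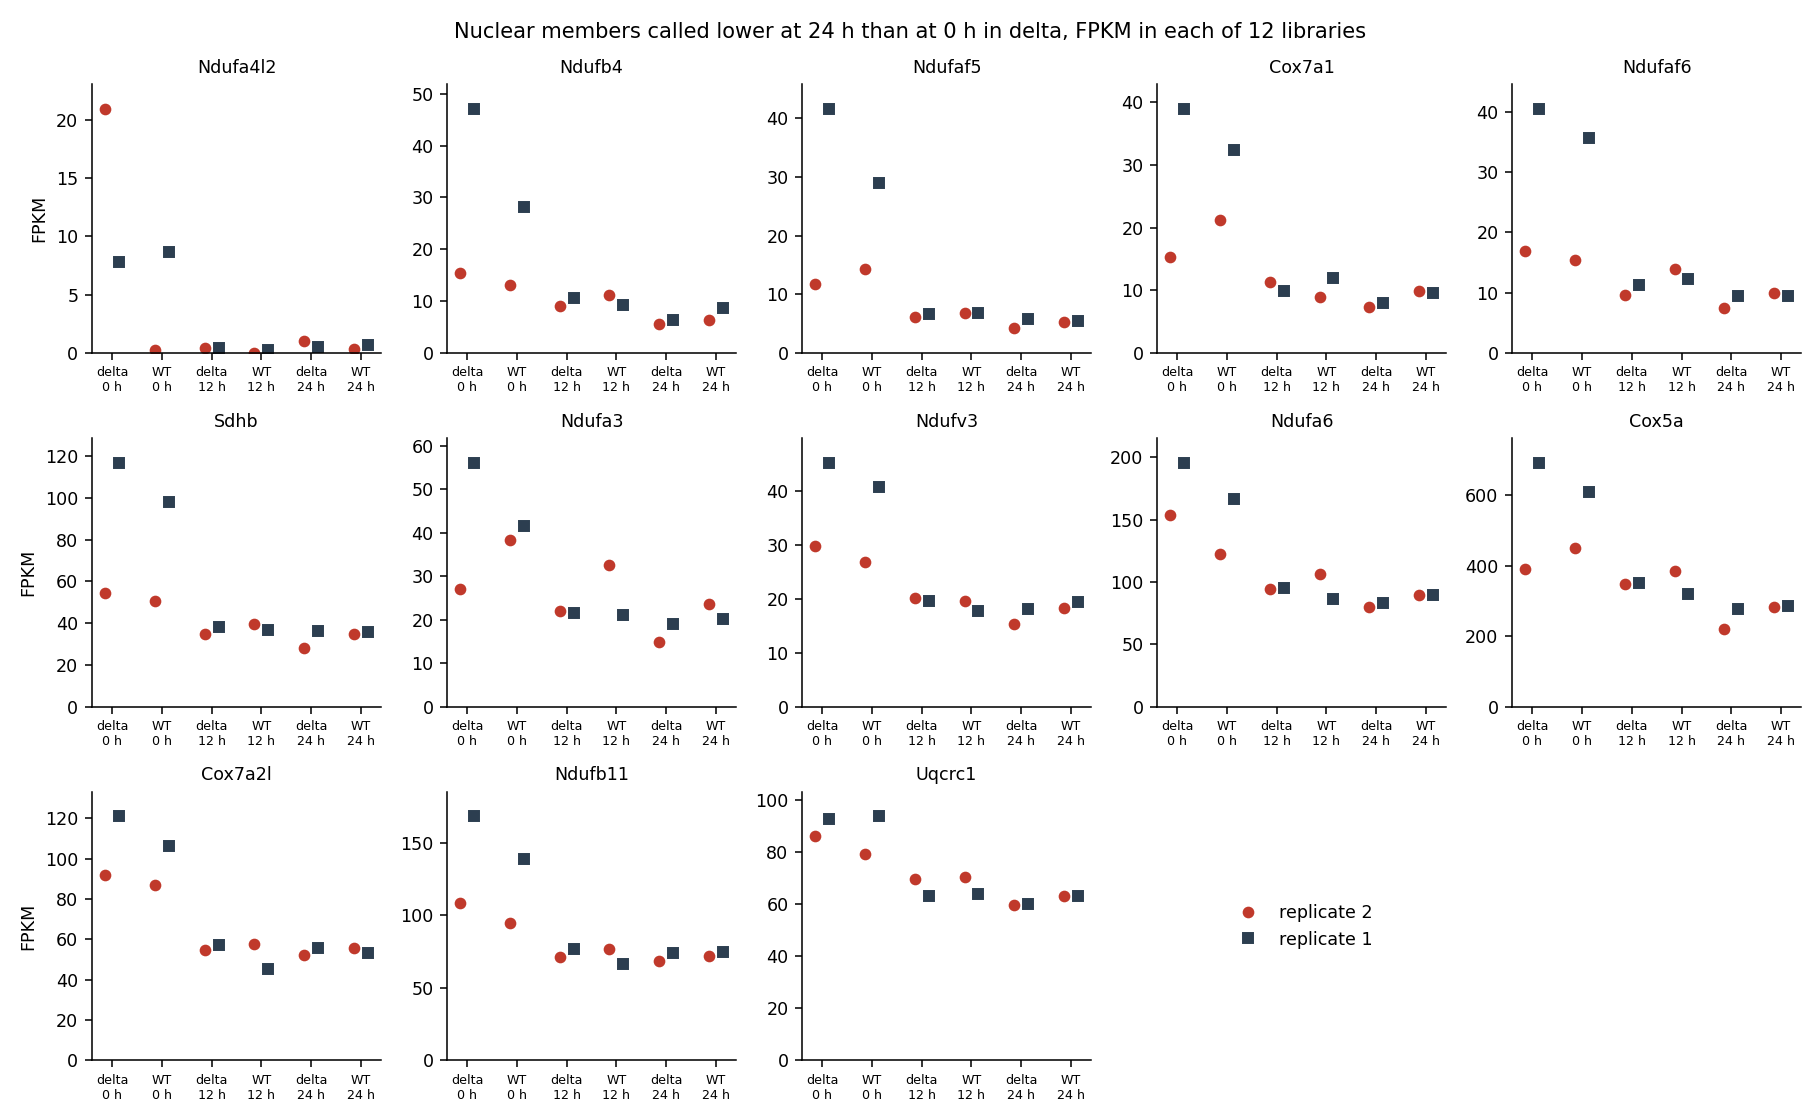
FPKM of the 13 nuclear members called lower at 24 h in delta, in each library, with replicate 2 as circles and replicate 1 as squares; each vertical axis starts at 0. In every panel both delta libraries of 24 h lie below both of 0 h, such as 6.38 and 5.62 FPKM against 47.1 and 15.3 FPKM for Ndufb4. The genes were chosen by the test on these same libraries.

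By role, all 67 structural subunits outside the complex I core lay below 0 in both genotypes at 24 h. Their medians were -0.90 in delta and -0.65 in WT, with 8 and 0 called lower, against 7.8% and 4.94% of all genes. The 7 nuclear core subunits of complex I had medians of -0.33 and -0.34 and 0 calls each. By complex, the medians at 24 h in delta were -0.85 for I, -0.88 for II, -0.89 for III, -0.99 for IV and -0.89 for V. No subunit of complex V was called; its 15 lay at -1.24 to -0.32 in delta. Without the 0 h replicate 1 libraries these values were several times smaller: the 67 had medians of -0.22 in delta and -0.24 in WT, with 11 and 4 above 0. The core subunits then had medians of -0.09 and -0.10, complexes I to V stood at -0.36 to -0.17 in delta, and 1 complex V subunit was called lower in delta. The 10 assembly or related factors had a median of -0.48 in delta and -0.32 in WT, with 3 calls (Ndufaf5, Ndufaf6 and Cox7a2l) and 1 (Cox7a2l). Differences between roles or complexes were not tested. Cox7b2, a relative of Cox7b, went the other way in WT, at 5.47 and 6.67 FPKM at 24 h against 2.91 and 1.27 FPKM at 0 h (1.24 ± 0.40, adjusted p = 0.0882, limma); it was called with the replicate block (adjusted p = 0.0449). In delta it had 3.35 and 2.57 FPKM at 24 h, against 4.32 and 1.16 FPKM at 0 h, which overlap.

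Nuclear genes of this group are known for promoters that bind nuclear respiratory factor 1, GABP and YY1, so the start sites of the called members were read for those cores. RefSeq promoter windows of 300 bases (GRCm38.p6, the assembly of mm10) were found for 76 of the 92 nuclear members, 82 windows in all. A gene was counted as a carrier if any of its windows held the letters. The nuclear respiratory factor 1 core GCATGCGC, searched on both strands, was carried by 12 of 76 members (15.8%) and by 3.94% of 17492 genes with a window. Its carriers were Ndufa11, Ndufa6, Ndufa8, Ndufaf4, Ndufaf5, Sdhb, Uqcr11, Uqcrc1, Cox6a1, Atp5g2, Atp5k and Atp5l, of which Ndufa6, Ndufaf5, Sdhb and Uqcrc1 were called in delta at 24 h. Among the other called members, Ndufa3, Ndufb4, Ndufb11, Ndufv3, Cox5a, Cox7a1 and Cox7a2l had a window without it, and Ndufaf6 and Ndufa4l2 had no window. A link between the core and the calls was not tested. The ETS core CCGGAAG, the kind bound by GABP, was carried by 22.4% of these members and 12.9% of all genes with a window. The YY1 core AAGATGGC was carried by 14.5% and 3.57%, and the TATA box TATAAA by 9.21% and 14.8%. Windows of 3 called carriers and of Cox7a2l, the gene called in every contrast, are printed 5′ to 3′ on the gene's strand with the nuclear respiratory factor 1 core in capitals. In Ndufaf5 (chr2:140170396-140170695, plus strand) and Uqcrc1 (chr9:108936398-108936697, plus strand) matches on both strands overlap. Ndufa6 lies at chr15:82354242-82354541 and Cox7a2l at chr17:83514284-83514583, both on the minus strand, and these letters are not in the window of Cox7a2l.
Ndufaf5: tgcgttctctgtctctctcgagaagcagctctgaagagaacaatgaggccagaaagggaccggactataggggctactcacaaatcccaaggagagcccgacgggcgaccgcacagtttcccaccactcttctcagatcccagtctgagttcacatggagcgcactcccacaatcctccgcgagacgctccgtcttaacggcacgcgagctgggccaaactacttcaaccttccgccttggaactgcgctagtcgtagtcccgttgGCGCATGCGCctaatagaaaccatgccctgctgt
Ndufa6: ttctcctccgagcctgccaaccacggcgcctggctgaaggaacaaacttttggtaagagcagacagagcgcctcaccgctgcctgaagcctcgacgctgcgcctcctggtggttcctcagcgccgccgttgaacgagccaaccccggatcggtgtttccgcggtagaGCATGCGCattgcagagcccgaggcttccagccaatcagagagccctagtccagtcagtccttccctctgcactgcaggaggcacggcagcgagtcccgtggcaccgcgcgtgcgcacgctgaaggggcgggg
Uqcrc1: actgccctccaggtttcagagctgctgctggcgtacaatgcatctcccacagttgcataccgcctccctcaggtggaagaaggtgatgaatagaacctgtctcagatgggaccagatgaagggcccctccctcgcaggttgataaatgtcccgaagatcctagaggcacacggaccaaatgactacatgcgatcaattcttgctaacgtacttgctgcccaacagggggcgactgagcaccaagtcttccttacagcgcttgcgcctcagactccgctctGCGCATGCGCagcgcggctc
Cox7a2l: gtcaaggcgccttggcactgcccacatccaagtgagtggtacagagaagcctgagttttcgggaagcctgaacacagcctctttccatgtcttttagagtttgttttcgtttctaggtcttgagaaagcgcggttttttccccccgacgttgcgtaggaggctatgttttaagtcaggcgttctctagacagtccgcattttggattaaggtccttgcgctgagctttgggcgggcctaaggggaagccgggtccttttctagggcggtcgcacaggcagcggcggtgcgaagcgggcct

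The 7 measured mitochondrial transcripts showed no call over time in either genotype (limma; 0 with an unadjusted p under 0.05 in each contrast). That fit held no replicate term, so it counted their split by replicate number as spread and could detect only large changes. The median log2 change of the 7 at 24 h was -0.11 in delta and -0.12 in WT, and under TPM, which moved the median of all genes up, 0.44 and 0.13. The median moved with the libraries kept: leaving out single libraries gave -1.33 to 0.98 in delta and -1.65 to 1.36 in WT. Within same-numbered pairs the direction differed by replicate. In replicate 2 of WT all 7 were lower at 12 h than at 0 h, at 0.562 to 0.664 times the level, and all 7 were lower at 24 h, at 0.628 to 0.866 times. In replicate 1 of WT all 7 were higher at 12 h, at 1.07 to 2.16 times. In delta at 12 h, 7 of 7 were lower in replicate 2 (0.620 to 0.889 times) and 6 of 7 higher in replicate 1. mt-Co1 was the only one of the 7 lower at 24 h in all 4 pairs, at 0.766 and 0.653 times in delta and 0.722 and 0.695 times in WT (replicates 2 and 1). Under TPM its ratio in delta replicate 1 turned to 1.23, and 0 of 7 were lower in all 4 pairs.

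Between genotypes, limma called 0 of 88 nuclear and 0 of 7 mitochondrial members in either direction at any time or averaged over times. For the 7 mitochondrial members that fit again counted the split by replicate number as spread, so it could detect only large differences. All genes gave few calls in this comparison too: 0% of all genes were called higher in each of the 4, and 0.00715% to 0.0143% lower. At 0 h the genotypes did not overlap for 3 nuclear members higher and 1 lower in delta, against 6.52% and 6.21% of all genes. At 12 h it was 19 and 7, against 16.8% and 15.2%, and at 24 h 5 and 17, against 14.3% and 16.4%. At an unadjusted p under 0.05, Atp5s and Ndufa4l2 were higher in delta at 0 h and Ndufaf7 was lower on average over times. Atp5s, a factor linked to ATP synthase, had 2.55 and 3.14 FPKM in delta, against 1.73 and 1.86 FPKM in WT at 0 h (0.46 on the log2 scale, adjusted p = 1). The median of the 88 was 0.15 at 0 h, 0.03 at 12 h and -0.07 at 24 h, and under TPM it was -0.12, 0.10 and -0.04. Ndufa4l2 differed most, with 7.78 and 20.9 FPKM in delta, against 8.64 and 0.240 FPKM in WT at 0 h, groups that overlap. Without the 0 h replicate 1 libraries it was called higher in delta at 0 h (adjusted p = 0.0473) and averaged over times (adjusted p = 0.0397), each 0 h group then being 1 library assumed to vary like the others. The change from 0 h to 12 or 24 h differed between genotypes for 0 of 95 members (limma interaction, smallest adjusted p of 1). That test, which rests on 2 libraries a group, does not show a difference between the 13 calls in delta and the 1 in WT at 24 h. The median difference in the change at 24 h was -0.22 over the 88 and -0.01 over all genes; under TPM it was 0.07 and 0.21.

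Genes around oxidative phosphorylation were read from the same fit, in which 7.8% of all genes were called lower and 7.58% higher in delta at 24 h, and 4.94% and 5.27% in WT. Of 18 genes of the tricarboxylic acid cycle, 1 was called at 24 h in each genotype, Idh2, the mitochondrial NADP-dependent isocitrate dehydrogenase. It had 38.6 and 29.6 FPKM in delta at 24 h against 80.8 and 91.6 FPKM at 0 h (-1.32 ± 0.19, adjusted p = 0.00204, limma), and 44.5 and 38.0 FPKM in WT at 24 h against 87.8 and 84.6 FPKM at 0 h (-1.05 ± 0.19, adjusted p = 0.00825, limma). Its 0 h replicates were alike. Of 14 measured genes of coenzyme Q synthesis, cytochrome c and the electron-transferring flavoprotein, 2 fell in delta at 24 h and 0 in WT: Coq2, an early enzyme of coenzyme Q synthesis, and Etfb. Of 36 other assembly factors, Timmdc1 (complex I) and Bcs1l (complex III) fell in delta at 24 h and 0 in WT. The 76 mitochondrial ribosomal proteins gave 0 calls at 24 h (limma), with medians of -0.41 in delta and -0.29 in WT. The 95 cytosolic ribosomal proteins had medians of -0.93 and -0.65, with 3 calls in delta and 0 in WT. The ribosomal lists moved with the members in the 0 h replicate 1 libraries, and their part in the members' change was not tested. Without those libraries the median of the mitochondrial ribosomal proteins was 0.11 in delta and 0.01 in WT, and that of the cytosolic ones -0.31 and -0.27.

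Among 24 measured genes of mitochondrial DNA expression, Fastkd1, an RNA-binding protein of mitochondria, fell in delta at 24 h, with 2.51 and 2.64 FPKM against 5.01 and 6.49 FPKM at 0 h. Elac2, which trims mitochondrial tRNA, rose in delta, with 31.6 and 36.2 FPKM at 24 h against 13.5 and 20.1 FPKM at 0 h (1.00 ± 0.23, adjusted p = 0.0207, limma). Of 10 measured regulators of mitochondrial biogenesis, Myc was called higher in all 4 contrasts, with 33.4 and 24.7 FPKM in delta at 24 h against 3.95 and 2.80 FPKM at 0 h, and 38.5 and 24.7 FPKM in WT at 24 h against 5.46 and 4.08 FPKM at 0 h. Tfe3 rose and Esrrb, an orphan nuclear receptor of naive cells, fell in delta at 24 h. Esrrb had 23.0 and 28.8 FPKM against 49.5 and 129 FPKM at 0 h (-1.60 ± 0.42, adjusted p = 0.0329, limma). Of 20 glycolysis genes, 1 rose in each genotype at 24 h, the phosphofructokinase Pfkm, with 39.4 and 30.9 FPKM in delta against 10.4 and 14.6 FPKM at 0 h. Slc2a3, a glucose transporter, fell in both, with 28.0 and 34.8 FPKM in delta at 24 h against 105 and 298 FPKM at 0 h. Gpi1 also fell in delta at 24 h, and Aldoa and Tpi1 at 12 h. The median of the 20 was -0.75 in delta and -0.40 in WT at 24 h; without the 0 h replicate 1 libraries it was -0.81 and 0.03.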

How the data were processed

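FPKM values (fragments per kilobase, scaled in each library) of 12 libraries were used as the authors deposited them. Their scaling did not follow recovered depth alone. The submitters' processing notes name cutadapt, STAR 2.5.2b, featureCounts 1.5.1, edgeR 3.16.5 and mm10, without their roles; the sources used here do not give whether counting used strand. Low FPKM values were whole multiples of 1 read: 80.1% of 28657 genes gave whole reads (tolerance 0.01) at their GENCODE M21 length and 19.9% at a length found from the steps. Recovered reads served for depth and shares only. Genes with at least 1 FPKM in at least 2 libraries (13981) entered limma 3.58.1 (R 4.3.3) as log2(FPKM + 1), with 6 group means, a mean-variance trend and no replicate block; the pseudocount of 1 understates changes of low genes. The fit was tested on simulated data. The replicate contrast added the replicate number as a term. Figures and counts used Python 3.11.15, numpy 2.4.6, pandas 2.3.3, scipy 1.17.1 and matplotlib 3.10.9.

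Replicate numbers come from the titles. Deviations from the group means were correlated between same-numbered delta and WT libraries (0.70 at 0 h, 0.28 at 12 h, 0.37 at 24 h), so the numbers were taken to pair the samples. Members and lists were chosen with earlier results of these data known. Named genes were all mt- members, up to 10 nuclear calls per direction and contrast by size, the highest and lowest subunit of each complex, the isoform sets, the 6 nuclear members with the largest replicate difference each way, up to 4 calls per other list, and Tcf15; Ndufb11, the nuclear core subunits of complex I and the pseudogenes were added after their values were seen. Sequences are from GENCODE M21 and RefSeq.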

Additional observations from a re-analysis of the deposited data

How the results depend on the processing

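The direction of every named call of a member held under every alternative. Of 486 such values, 299 kept their side of the threshold and 187 lost it. Calls of genes from the other lists are not among these values. The counts of nuclear members called lower after induction were the least stable. Leaving out single libraries gave 0 to 71 in delta at 12 h, 0 to 75 in delta at 24 h, 0 to 4 in WT at 12 h and 0 to 18 in WT at 24 h; members called higher in WT at 24 h were 0 to 1, and mt- members called higher in replicate 2 were 0 to 7. A pseudocount of 0.1 gave 2 lower in WT at 24 h. Without the low-value filter the counts lower were 1 in delta at 12 h, 5 in delta at 24 h and 0 in WT at 12 h, and 0 mt- members were called in replicate 2. TPM gave 0 at 12 h in either genotype, 3 in delta at 24 h and 3 in WT at 24 h (with 1 higher). TPM without mt- and ribosomal genes gave 5 in delta at 24 h, 6 in WT at 24 h (with 1 higher) and 0 in delta at 12 h. Quantile normalization gave 5 in WT at 24 h and 1 nuclear member in the replicate contrast. The replicate block, which uses the pairing of same-numbered samples, gave 7 lower in delta at 12 h, 21 in delta at 24 h and 4 in WT at 24 h (with 1 higher), and changed no other count of calls by over 1.5 times. Without both 0 h replicate 1 libraries, an alternative chosen after seeing the data, the counts lower at 12 and 24 h were 7 and 21 in delta, then 3 and 9 in WT, with 1 higher in each genotype at 24 h, and 1 nuclear member was called between genotypes at 0 h and averaged. With the block as well they were 13 and 22 in delta, then 5 and 16 in WT, with 1 higher in each genotype at 24 h and 1 nuclear member again between genotypes at 0 h and averaged. The summed FPKM of nuclear members, replicate 2 minus replicate 1, passed the threshold under TPM (-0.21 on the log2 scale, p = 0.03125, exact permutation test over 6 pairs). Fits that leave out a library rest on 1 library in its group, assumed to vary like the others. The causes were not tested, and counts given in this section without a share of all genes cannot be set against that share. With 2 libraries a group, differences between genotypes smaller than the spread between replicates were not detectable.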
